A study of Equus caballus with 13 samples.

Results

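The ADAMTS proteases of horse (Equus caballus) chondrocytes are described here through the kinetics of their RNA. A set of 8 genes was chosen by symbol: ADAMTS1, ADAMTS2, ADAMTS4, ADAMTS5, ADAMTS6, ADAMTS7, ADAMTS9 and ADAMTS10. Of these, 7 had a row in at least 1 of the 2 kinetics tables of the series, which held 11056 genes for age and 11249 genes for sex. ADAMTS1, ADAMTS4, ADAMTS5, ADAMTS9 and ADAMTS10 were in both tables, ADAMTS2 and ADAMTS7 were in the sex table only, and ADAMTS6 had no row in either and is not analysed here.

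ADAMTS proteins are secreted zinc proteases whose catalytic domain is followed by thrombospondin repeats that hold them in the matrix. They are made as inactive precursors and are activated by furin-like convertases. ADAMTS4 and ADAMTS5 are the main aggrecanases: they cut the core protein of aggrecan, the proteoglycan that gives cartilage its resistance to compression, and this cut is an early step of cartilage loss in osteoarthritis. ADAMTS1 and ADAMTS9 also cleave aggrecan and versican, ADAMTS7 cleaves cartilage oligomeric matrix protein, ADAMTS2 removes the amino-terminal propeptide of fibrillar procollagens, and ADAMTS6 and ADAMTS10 act on the fibrillin microfibrils of connective tissue.

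All cells were wild-type chondrocytes released from cartilage, kept in culture for 2 days and labelled with 4-thiouridine (4sU), a uridine analogue built into newly made RNA, for 4 h. The groups were old female (5 samples), young female (5 samples) and young male (3 samples). Ages in years, and whether the samples of a group came from separate animals, are not given in the sources used here. The cells were isolated and cultured, so the values are those of chondrocytes outside their matrix.

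Each table listed a synthesis rate and a half-life per gene and group, as 1 value that the authors made from all samples of the group. No value per sample, spread or read count accompanied them, so every value below is without replicates, depth is unknown, and no difference could be tested against the spread between samples. Differences are given by size and were counted when they reached 2-fold, an absolute log2 ratio of 1. Half-lives were read as hours and synthesis rates as arbitrary units. Synthesis rates were not compared between genes, because a correction for transcript length is not stated. Each sample had a batch of its own apart from 1 young female and 1 young male sample, which shared batch 10, so batch and group cannot be told apart. All 10 chondrocyte markers looked for, among them SOX9, COL2A1 and ACAN, were listed in both tables. Of 7 fibroblastic markers 6 were listed for age and 7 for sex. Of 9 markers of synovial lining, endothelial and blood cells only VWF was listed.

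Half-lives of the 7 listed members ranged widely. In the sex table, young female cells had a half-life of 0.987 h for ADAMTS1, 1.63 h for ADAMTS9, 2.11 h for ADAMTS4 and 2.55 h for ADAMTS5. These 4 proteases, all able to cut aggrecan or versican, lay under the median of all genes, which was 3.74 h. ADAMTS1 was among the shortest-lived RNAs of the table, with 4.67% of genes below it. The half-life was 12.2 h for ADAMTS7, 15.8 h for ADAMTS10 and 36.1 h for ADAMTS2, so that none of these 7 lay between 2.55 and 12.2 h. Other ADAMTS proteases of the table did, with ADAMTS14 at 3.84 h, ADAMTS12 at 6.70 h and ADAMTS3 at 7.77 h, so the gap belongs to the choice of members and not to the family. For ADAMTS2, 96.3% of genes had a shorter half-life. From shortest to longest the members spanned 36.6-fold.

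At constant RNA level and first-order decay, these half-lives correspond to very different turnover during labelling. Of the ADAMTS1 RNA present after 4 h, 94.0% would have been made within those 4 h, against 73.1% of ADAMTS4 and 66.3% of ADAMTS5 RNA. The same share was 16.1% for ADAMTS10 and 7.39% for ADAMTS2.

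The young female samples entered both tables, which gives a second estimate of each value from the same cells. Half-lives of ADAMTS1, ADAMTS4, ADAMTS5 and ADAMTS10 differed by 0.0777 to 0.279% between the tables. ADAMTS9 differed most among the 5 members listed in both, at 1.59 h in the age table and 1.63 h in the sex table, or 2.74%. Its synthesis rate moved the other way, from 166 to 154 units, while the product of both parameters departed by only 0.000786 log2 units from the factor of 0.955 that separated the tables. This repeat shares its samples and holds none of the variation between them. The order of the short-lived members rests on gaps of 1.21-fold (ADAMTS5 over ADAMTS4) to 1.65-fold (ADAMTS9 over ADAMTS1), which exceed the repeat differences but have no replicate error.

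**Figure D1:**
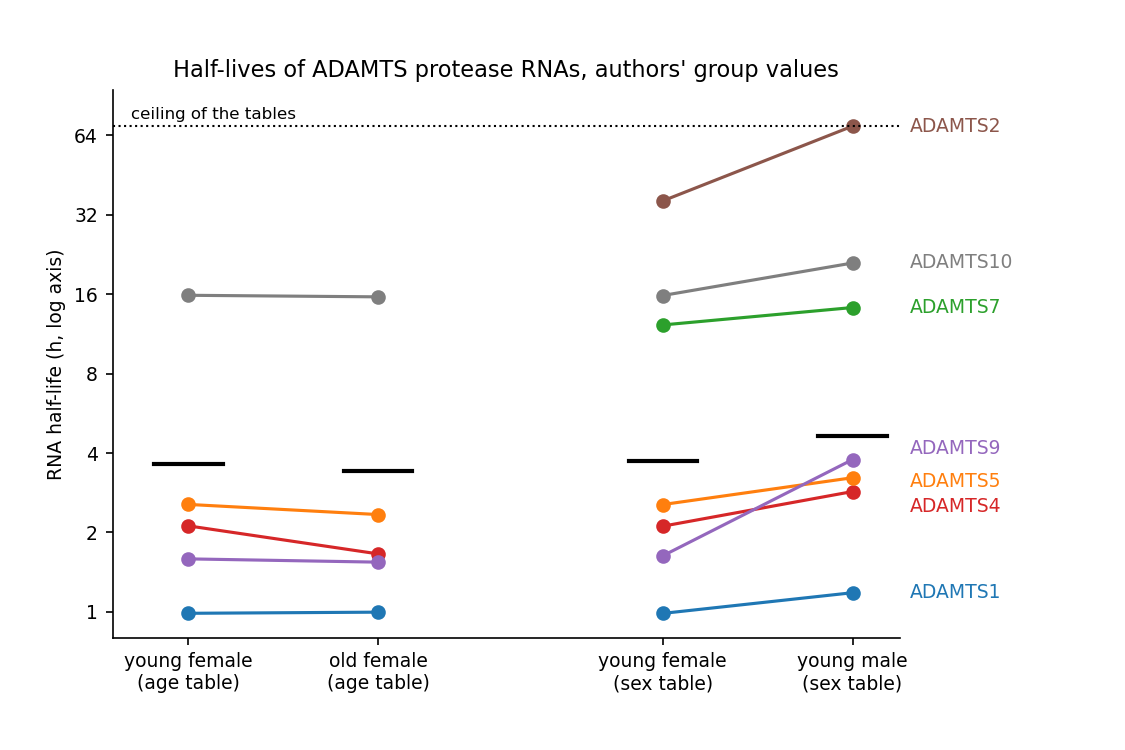
Half-life in hours on a log axis of each ADAMTS RNA with a row, as the authors' group value in young female and old female cells (age table) and in young female and young male cells (sex table). Lines join the 2 groups of a table, black bars mark the median of all genes, and the dotted line marks the ceiling of 69.3 h. ADAMTS1, ADAMTS4, ADAMTS5 and ADAMTS9 lie under the median of all genes in every column, and ADAMTS9 has the steepest line, in the sex table.

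The first comparison asked how the proteases differed between old and young female cells. The aggrecanases moved apart: ADAMTS5 had a higher synthesis rate in old cells and ADAMTS4 a lower one. Half-lives of the 5 listed members differed little, and 0 of 5 passed 2-fold, where 3.53% of all genes did. For synthesis rate 1 of 5 passed, ADAMTS5, against 7.52% of all genes (4.59% upward). With so few members these counts say nothing particular about the family.

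The synthesis rate of ADAMTS5 was 3485 units in young female and 7167 units in old cells, a log2 ratio of 1.04 or 2.06-fold. Its half-life was 2.55 h in young female and 2.34 h in old cells. In 95.6% of genes the log2 ratio of synthesis rate was lower than that of ADAMTS5. The ratio was 0.96 after centring on the median of all genes, so that this member passes or misses 2-fold by a small margin.

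An implied level was derived for each gene from the product of synthesis rate and half-life (over ln 2), which takes the RNA to be at steady state. For ADAMTS5 this level was 1.88-fold higher in old cells (log2 ratio 0.91). As the half-life differed by a log2 ratio of −0.13, the higher level was carried by synthesis.

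ADAMTS4 had a synthesis rate of 389 units in young female and 227 units in old cells, a log2 ratio of −0.78. Its half-life was 2.12 h in young female and 1.66 h in old cells, a log2 ratio of −0.35. Synthesis and half-life were both lower, and their sum gave an implied level 2.19-fold lower in old cells (log2 ratio −1.13). Only 1.44% of genes had a lower ratio of level. ADAMTS4 was the 1 member of 5 whose implied level passed 2-fold, against 4.12% of all genes (1.99% downward).

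ADAMTS1, which sits next to ADAMTS5 as the neighbouring protein-coding gene in the RefSeq gene table, had a synthesis rate of 10269 units in young female and 16398 units in old cells. The log2 ratio was 0.68, or 1.60-fold. Its half-life was 0.988 h in young female and 0.998 h in old cells, a difference of 0.594 min. The implied level was 1.61-fold higher in old cells and did not reach 2-fold.

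The remaining members were nearly level between the ages. For ADAMTS9 the synthesis rate was 166 units in young female and 158 units in old cells, and the half-life was 1.59 and 1.54 h. Its log2 ratio of synthesis rate was −0.08, or 0.03 against the young female estimate of the sex table, so no direction can be given. For ADAMTS10 the synthesis rate was 117 units in young female and 97.2 units in old cells, a log2 ratio of −0.27, and the half-life was 15.8 and 15.6 h. Half-lives were shorter in old cells for 4 of 5 members, as they were for 63.1% of all genes, but ADAMTS9 and ADAMTS10 turned to 0.04 and 0.06 after centring on the median of all genes.

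**Figure D2:**
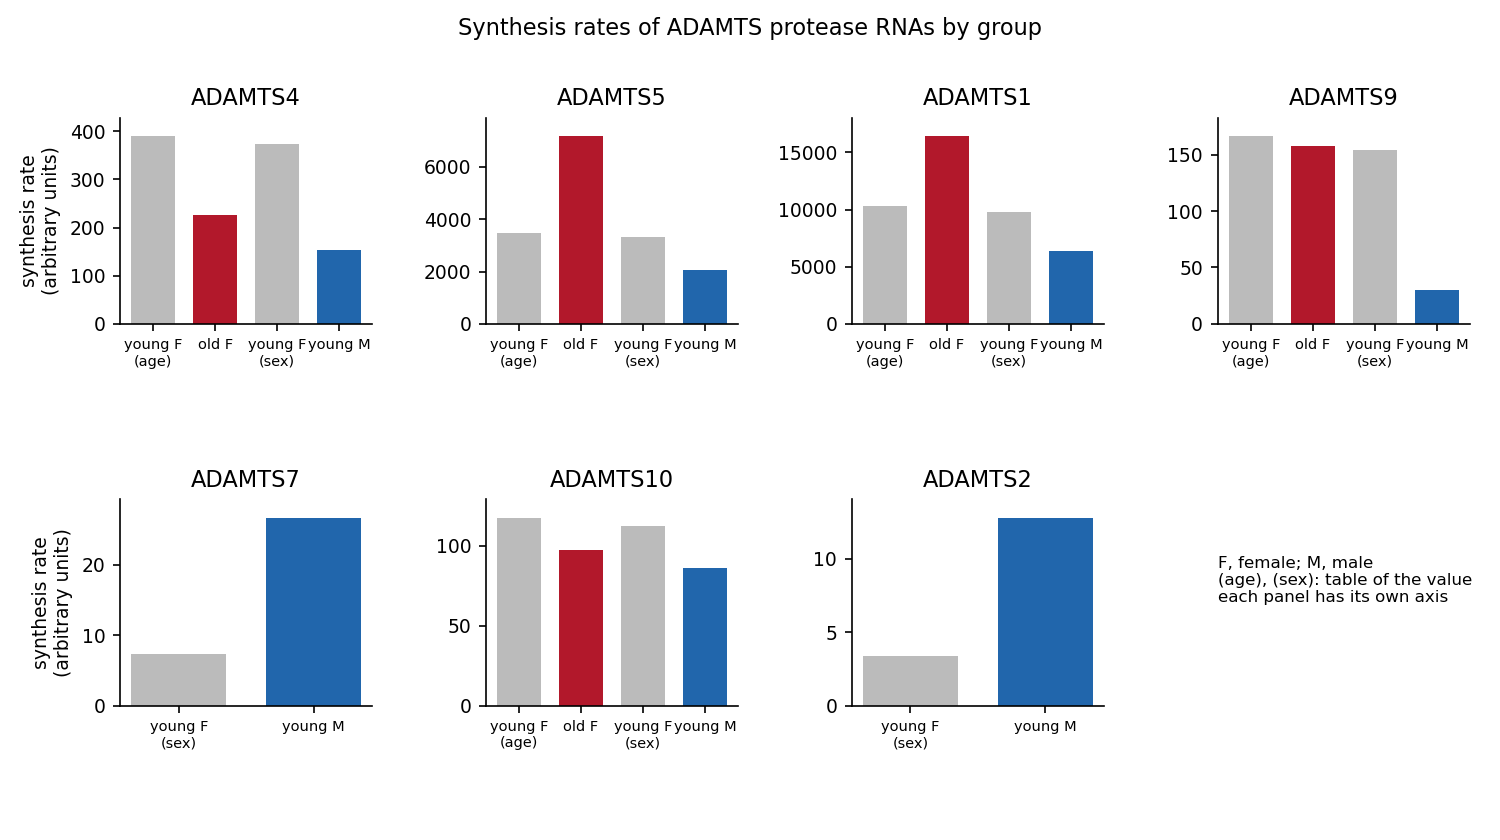
Synthesis rate in arbitrary units for each ADAMTS gene with a row, as 1 bar per group value of the authors, with grey for young female (from the age and the sex table), red for old female and blue for young male cells. Each panel has its own axis from 0, since rates are not compared between genes. ADAMTS5 and ADAMTS1 have their tallest bar in old female cells, and ADAMTS4 its tallest in young female cells.

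The second comparison asked how the proteases differed between young male and young female cells. The short-lived aggrecan- and versican-cutting members all had lower synthesis rates in male cells, as did 71.1% of all genes, whereas ADAMTS2 and ADAMTS7 had higher ones. For synthesis rate 4 of 7 listed members passed 2-fold, where 12.2% of all genes did. ADAMTS4 and ADAMTS9 were lower (8.37% of all genes) and ADAMTS2 and ADAMTS7 were higher (3.78% of all genes). ADAMTS2 and ADAMTS7 had no row in the age table and may be listed only through their higher values in male cells. Their upward calls therefore cannot be read against that share. The count was 2 of 5 with young female values taken from the age table, which leaves both genes out. For half-life 1 of 7 passed, ADAMTS9, against 7.58% of all genes (5.62% upward). Half-lives of all 7 were longer in male cells, as were those of 77.3% of all genes; the log2 ratios of ADAMTS1 and ADAMTS7 turned to −0.01 and −0.05 after centring on the median of all genes, and that of ADAMTS10 to −0.06 after centring within deciles of half-life, in which genes were ordered by their half-life in old cells.

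The table as a whole was shifted, with a median log2 ratio of 0.27 for half-life and −0.28 for synthesis rate over all genes. A ratio given relative to the shift has this median subtracted. The shift of implied levels was 0.01.

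ADAMTS9 had a lower synthesis rate and a longer half-life in male cells. Its synthesis rate was 154 units in young female and 30.2 units in male cells, 5.12-fold lower, with a log2 ratio of −2.36 (−2.08 relative to the shift). Only 0.871% of genes had a lower ratio. Its half-life was 1.63 h in young female and 3.78 h in male cells, a difference of 129 min and a log2 ratio of 1.21 (0.94 relative to the shift). The longer half-life offset part of the lower synthesis rate, and the implied level was 2.21-fold lower in male cells (log2 ratio −1.14, or −0.92 after centring within deciles of half-life).

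The order of half-lives among the short-lived members differed between the groups. In young female cells ADAMTS9 was the second shortest, before ADAMTS4 and ADAMTS5. In male cells its 3.78 h lay above the 2.86 h of ADAMTS4 and the 3.23 h of ADAMTS5. ADAMTS5 over ADAMTS4 was then 1.13-fold and ADAMTS9 over ADAMTS5 1.17-fold, gaps without replicate error. In old cells ADAMTS9 and ADAMTS4 were the closest neighbours, at 1.54 and 1.66 h, or 1.07-fold.

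ADAMTS4 had a synthesis rate of 373 units in young female and 153 units in male cells, 2.43-fold lower. The log2 ratio was −1.28, −1.003 relative to the shift and −0.90 after centring within deciles of half-life, which is under the threshold. Its half-life was 2.11 h in young female and 2.86 h in male cells. The implied level was 1.80-fold lower in male cells, with 3.01% of genes having a lower ratio.

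ADAMTS5 and ADAMTS1 had similar ratios, both under 2-fold. The synthesis rate of ADAMTS5 was 3332 units in young female and 2051 units in male cells, a log2 ratio of −0.70 (−0.42 relative to the shift). That of ADAMTS1 was 9811 units in young female and 6369 units in male cells, a log2 ratio of −0.62 (−0.34 relative to the shift). The half-life of ADAMTS5 was 2.55 h in young female and 3.23 h in male cells, and that of ADAMTS1 was 0.987 and 1.18 h. Implied levels were 1.28-fold lower for ADAMTS5 and 1.29-fold lower for ADAMTS1. The log2 ratio of level of ADAMTS1 was −0.36, and −0.01 after centring within deciles of half-life.

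The members with roles in collagen processing and in turnover of cartilage oligomeric matrix protein were higher in male cells. ADAMTS2 had a synthesis rate of 3.37 units in young female and 12.8 units in male cells, 3.79-fold higher (log2 ratio 1.92, or 2.20 relative to the shift). Its half-life went from 36.1 h in young female cells to the ceiling of 69.3 h in male cells, so a still longer half-life could not have been listed, and the implied level was 7.27-fold higher. ADAMTS7 had a synthesis rate of 7.35 units in young female and 26.6 units in male cells, 3.62-fold higher (log2 ratio 1.86, or 2.13 relative to the shift), with half-lives of 12.2 and 14.2 h. Its implied level was 4.21-fold higher. Both genes had low synthesis values that fall below the upper 75% of the table, and neither had a second estimate in young female cells.

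ADAMTS10 was nearly level. Its synthesis rate was 112 units in young female and 85.8 units in male cells and its half-life was 15.8 and 21.0 h. These opposite log2 ratios (−0.39 and 0.41, or −0.11 and 0.14 relative to the shift) left the implied level at a log2 ratio of 0.02. For implied level 3 of 7 members passed 2-fold, against 4.61% of all genes: ADAMTS2 and ADAMTS7 upward (3.00% of all genes) and ADAMTS9 downward (1.61% of all genes). ADAMTS2 and ADAMTS7 had no row for age and may be listed only through their higher level in male cells. Their upward calls cannot be read against the share of all genes. The count was 1 of 5 with young female values taken from the age table, which leaves both genes out.

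Opposite signs of the 2 ratios were common in the tables. In male cells 5 of 7 members had a longer half-life with a lower synthesis rate, and 76.2% of all genes had ratios of opposite sign. In old cells 1 of 5 members had ratios of opposite sign, ADAMTS5, with a shorter half-life and a higher synthesis rate, against 70.4% of all genes. After centring on the median of all genes the count in old cells was 3 of 5 (ADAMTS5, ADAMTS9 and ADAMTS10), against 68.7% of all genes, so it depends on the scaling. In male cells it was again 5 of 7, against 68.0% of all genes, but with ADAMTS7 in place of ADAMTS1. Both ratios kept the same sign as each other with and without centring for ADAMTS2 in male cells and for ADAMTS1 and ADAMTS4 in old cells.

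**Figure D3:**
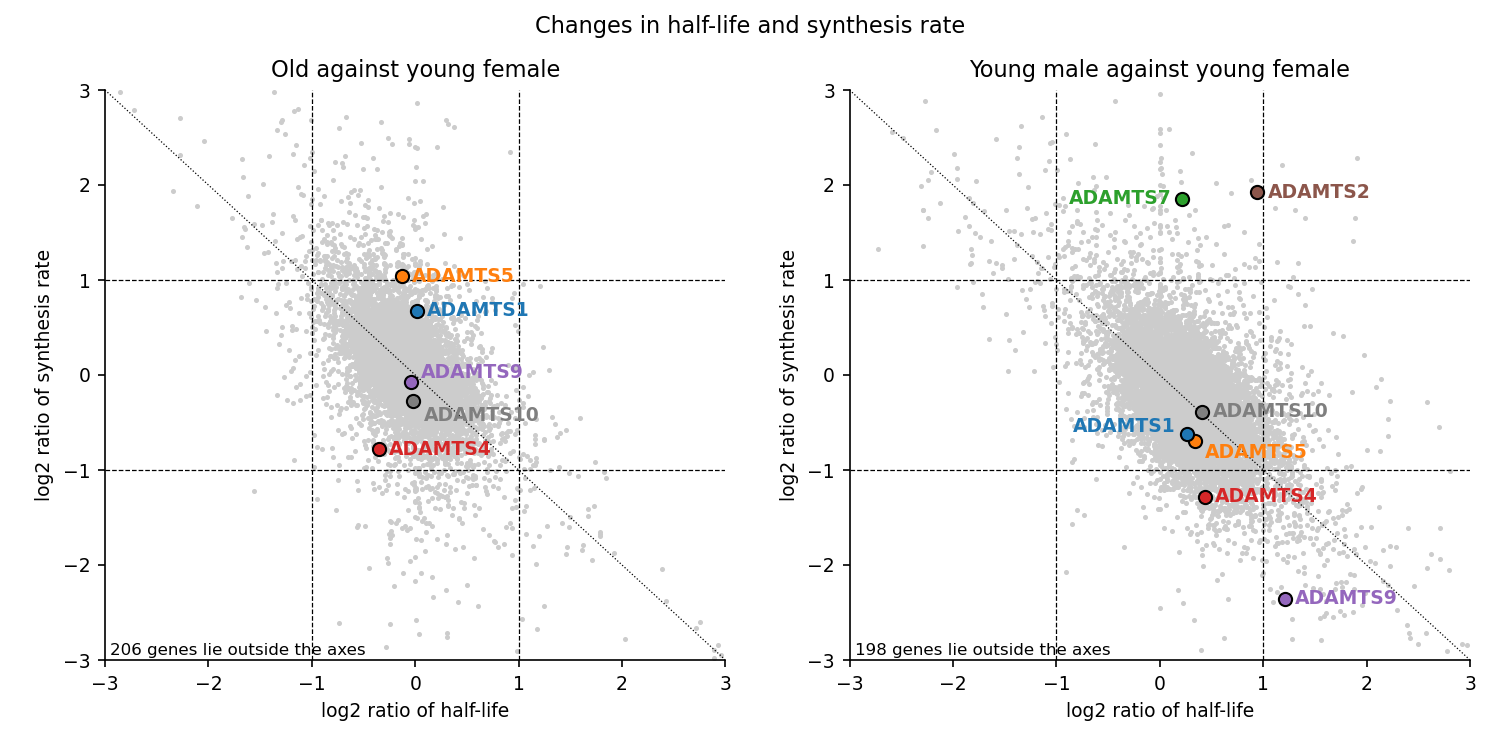
Log2 ratio of half-life (x axis) against log2 ratio of synthesis rate (y axis) for all genes (grey) and the ADAMTS genes with a row (coloured), for old against young female and for young male against young female cells. Dashed lines mark 2-fold and the dotted diagonal marks an unchanged implied level, with genes above it higher in level. In the male panel ADAMTS2 and ADAMTS7 lie above the diagonal and ADAMTS9 and ADAMTS4 below it, and in the old panel ADAMTS4 lies below it while ADAMTS5 and ADAMTS1 lie above.

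The balance between the aggrecanases can be followed without regard to transcript length, because length cancels in a ratio of ratios. The implied level of ADAMTS5 relative to ADAMTS4 was 4.13-fold higher in old than in young female cells (difference of log2 ratios 2.05), with synthesis rate contributing 1.82 and half-life 0.23. In male cells it was 1.40-fold higher than in young female cells (difference 0.48). ADAMTS5 relative to ADAMTS1 differed by 1.17-fold in old cells and by 1.00-fold in male cells. Both comparisons use the same young female samples, so their errors are not independent, and the difference between them was not tested.

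Over the 4 log2 ratios (half-life and synthesis rate in both comparisons), ADAMTS1 and ADAMTS5 were the closest of the 10 pairs of members in both tables, at a Euclidean distance of 0.41 log2 units. The next closest pair, ADAMTS1 and ADAMTS10, lay at 0.99. ADAMTS1 was the 20th closest of 10274 genes with a symbol to ADAMTS5, and ADAMTS5 the 146th closest to ADAMTS1. The aggrecanases ADAMTS4 and ADAMTS5 lay far apart, at 1.93.

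The genes outside the family most like ADAMTS5 by this distance were CTTNBP2 (0.174), a cortactin-binding protein, MEIS2 (0.183), a homeobox transcription factor, and PTPN13 (0.183), a tyrosine phosphatase. Those most like ADAMTS4 were PDE7B (0.161), a cyclic AMP phosphodiesterase, CYP1B1 (0.300), a cytochrome P450, and TXNRD1 (0.307), a thioredoxin reductase. Those most like ADAMTS9 were TNFAIP6 (0.377), a secreted hyaluronan-binding protein, TTC36 (0.414) and MRS2 (0.431). TNFAIP6 had a log2 ratio of 1.55 for half-life and −2.25 for synthesis rate in male cells. The distance rests on 3 groups, with young female values in all 4 ratios.

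Other members of the ADAMTS family were sparse in the tables. Of 11 further proteases 4 were listed, and in old cells 2 of these 4 had synthesis rates past 2-fold, both lower (2.92% of all genes). ADAMTS14, a procollagen N-proteinase like ADAMTS2, had a synthesis rate of 76.9 units in young female and 18.1 units in old cells (log2 ratio −2.09), with a half-life of 3.85 and 3.99 h. In male cells its synthesis rate was 35.0 units against 73.5 in young female cells (log2 ratio −1.07, or −0.79 relative to the shift and then under 2-fold), while that of ADAMTS2 was higher, so ADAMTS2 relative to ADAMTS14 was 8.77-fold higher in implied level. ADAMTS12, which like ADAMTS7 cleaves cartilage oligomeric matrix protein, had a synthesis rate of 27.8 units in young female and 8.92 units in old cells (log2 ratio −1.64). In male cells its half-life was 17.3 h against 6.70 h in young female cells, a log2 ratio of 1.37 (1.09 relative to the shift), and after centring within deciles of half-life 0 of the 4 listed genes passed in half-life. The young female half-life of ADAMTS12 differed by 15.4% between the tables. Of 8 ADAMTS-like proteins, which lack the protease domain, 6 were listed and 0 passed 2-fold in half-life (3.53% of all genes in old and 7.58% in male cells) or in synthesis rate (7.52% and 12.2%), and with 6 genes a count of 0 is not set apart from those shares.

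Genes that act on the proteases were compared with them. Among 8 convertases, endocytic receptors and cell-surface partners, all of which were listed, 2 passed 2-fold in synthesis rate in old cells, where 7.52% of all genes did. PCSK5, a proprotein convertase, had a log2 ratio of 1.05 (0.97 after centring on the median of all genes, under the threshold), and SDC1, a heparan sulfate proteoglycan of the cell surface, had one of −1.60. In male cells SDC1 had a log2 ratio of 1.09 for half-life and −1.09 for synthesis rate, or 0.82 and −0.81 relative to the shift, both then under 2-fold, and the implied level was at 0.00. Of 6 inhibitors 4 were listed for age and 5 for sex. TIMP1 had a log2 ratio of synthesis rate of −1.59 in old and −1.09 in male cells, the latter −0.82 relative to the shift and then under 2-fold. TIMP4, listed for sex only, had one of −1.41 in male cells (−1.13 relative to the shift) with a half-life at the ceiling. Its synthesis values were low, at 3.82 units in young female and 1.44 units in male cells, without a second young female estimate. Whether TIMP4 is listed only through its higher implied level in male cells was not tested. In implied level 0 of 5 inhibitors passed 2-fold in male cells (4.61% of all genes), with TIMP1 at −0.16 and TIMP4 at 0.42. In old cells 1 of 4 passed (4.12% of all genes), TIMP1 at −1.42.

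Substrates of the proteases were compared by implied level. Of the 7 fibrillar procollagens, substrates of ADAMTS2, all 7 had implied levels past 2-fold upward in male cells, where 3.00% of all genes did, with a median log2 ratio of 1.74 against 0.01 for all genes. COL1A1 (4.19) and COL1A2 (3.40) stood highest, and ADAMTS2 itself was at 2.86. The male half-lives of COL1A2 and COL5A2, like that of ADAMTS2, were at the ceiling, and how far this bears on their implied levels was not tested. In old cells 3 of 7 passed 2-fold downward (1.99% of all genes), among them COL1A1 (−2.86) and COL1A2 (−1.82). The count was 1 of 4 in the upper 75% by synthesis rate, which leaves out COL1A1 and COL1A2. Of 12 proteoglycans, link proteins and other matrix substrates of the aggrecanases 9 were listed, and 5 of them passed 2-fold upward in male cells, against 3.00% of all genes (3 of 9 after centring within deciles of half-life). Those 5 included COMP (1.60), the substrate of ADAMTS7, which was at 2.07, and VCAN (1.23), BGN (1.77) and FMOD (1.89), with the male half-lives of COMP, BGN and DCN at the ceiling. In old cells 4 of the 9 passed 2-fold in level, against 4.12% of all genes. HAPLN1 (−1.01), HAPLN3 (−1.65) and VCAN (−1.68) were lower and DCN (1.35), named after its value was seen, was higher, beside the −1.13 of ADAMTS4 and the 0.91 of ADAMTS5. ACAN, which encodes aggrecan, was at −0.48 in old and 0.95 in male cells, under 2-fold in both. With young female values from the sex table HAPLN1 was at −0.94, under the threshold, and the half-life of VCAN in young female cells was at the ceiling in the age table.

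Genes of fibrillin microfibrils and of the matrix around them, the setting of ADAMTS10 and ADAMTS6, were listed for 7 of 9 genes in the age table and 8 of 9 in the sex table. In male cells 4 of 8 had implied levels past 2-fold upward, against 3.00% of all genes (1 of 7 after centring within deciles of half-life), namely LTBP4 (1.39), the fibrillins FBN1 (1.14) and FBN2 (3.21), and FN1 (1.33), which encodes fibronectin and not a microfibril component, with male half-lives of FBN2 and FN1 at the ceiling, beside the 0.02 of ADAMTS10. FBN2 had no row in the age table and may be listed only through its higher level in male cells, so its call cannot be read against that share. In old cells 1 of 7 passed 2-fold in level, MFAP2 (−1.23), where 1.99% of all genes passed downward. The count was 0 of 6 in the upper 75% by synthesis rate, which leaves MFAP2 out.

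**Figure D4:**
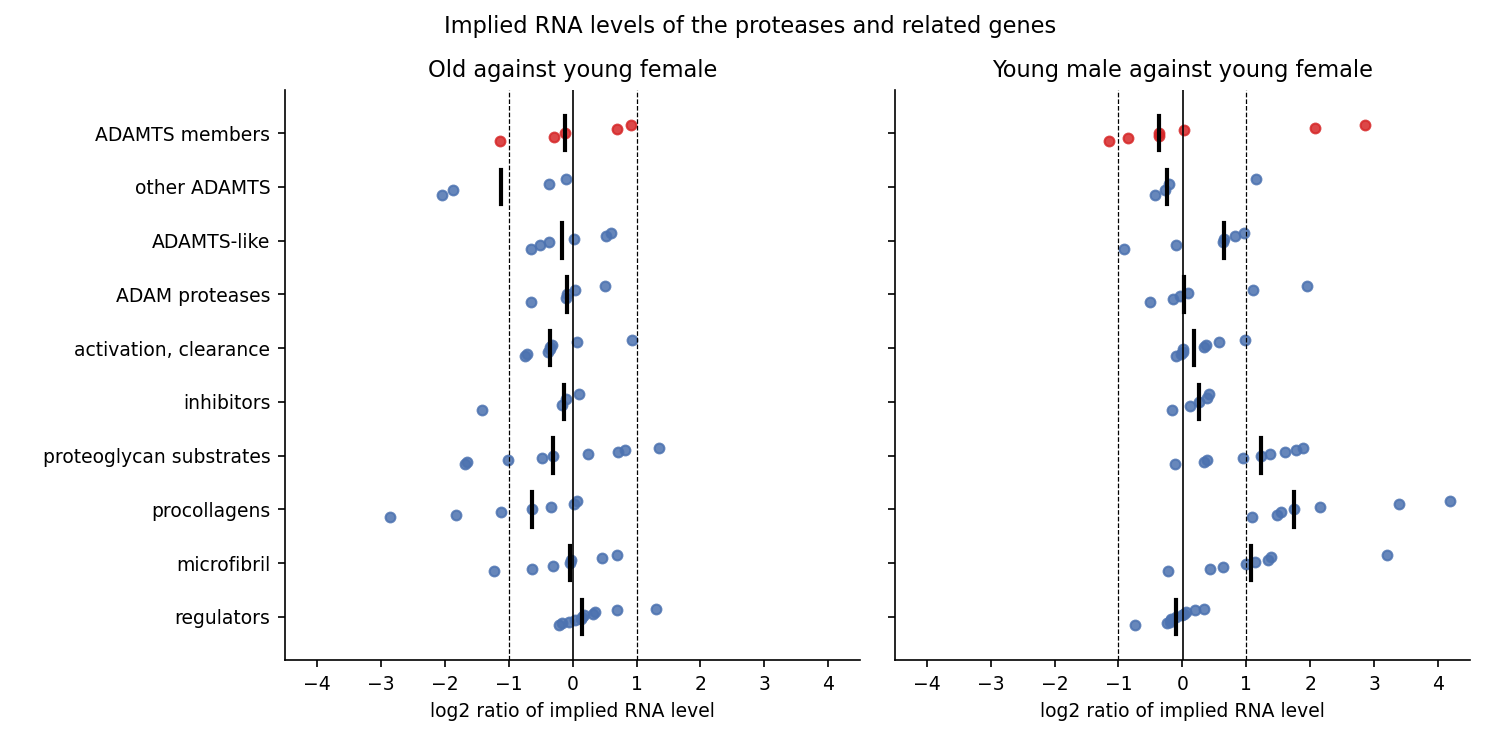
Log2 ratio of implied RNA level (synthesis rate times half-life) for each listed gene (points) of the ADAMTS members and of 9 related gene lists, for old against young female and for young male against young female cells. Thick black ticks are list medians, dashed lines mark 2-fold and the thin vertical line is the median of all genes. All 7 procollagens lie beyond 2-fold in male cells, where ADAMTS2 and ADAMTS7 are the 2 rightmost members.

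Markers of cell state also differed between the groups, but some of them are counted among the genes above. COL1A1, COL1A2 and COL3A1 are also among the procollagens above, and COL2A1 and HAPLN1 are both substrates and chondrocyte markers. Of the 7 fibroblastic markers (COL1A1, COL1A2, COL3A1, THY1, POSTN, PDGFRA and S100A4), all listed for sex, 6 had implied levels past 2-fold upward in male cells (3.00% of all genes), with a median log2 ratio of 1.39, while PDGFRA was lower (−0.71). POSTN, among the 6, had no row in the age table and may be listed only through its higher level in male cells. Of the 10 chondrocyte markers 6 passed 2-fold upward in male cells, with a median of 1.59. In old cells 4 of the 6 fibroblastic markers listed for age passed 2-fold downward (1.99% of all genes), with a median of −1.07. The count was 1 of 2 in the upper 75% by synthesis rate, which leaves out COL1A1, COL1A2 and S100A4. It was 3 of 6 with young female values from the sex comparison, and S100A4 was then at −0.96, under the threshold. Of the 10 chondrocyte markers 1 passed 2-fold downward in old cells, with a median of −0.37, and 0 of 10 with those other young female values. Summed without a correction for length, the fibroblastic markers were 2.47-fold higher in male cells (153184 and 377761 units) and 2.13-fold lower in old cells (160358 and 75390 units). COL3A1 made up 83.2% and 83.3% of the young female sums, and without it the sums were 4.18-fold higher in male and 1.94-fold lower in old cells. The sum over the chondrocyte markers was 2.39-fold higher in male and 1.44-fold lower in old cells. VWF, the 1 listed marker of other cells, was at 1.03-fold in male and 1.20-fold in old cells. The part of these marker shifts in the values of ADAMTS2, ADAMTS4, ADAMTS5, ADAMTS7 and ADAMTS9 was not tested, and in cultures measured in bulk, fewer cells of a type and less RNA per cell cannot be told apart.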

How the data were processed

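Poly(A)-selected, strand-specific libraries were made from 4sU-labelled RNA after 15 min in iodoacetamide, as the labels' protocols state. Cutadapt 4.5, STAR 2.5.3 and the build EquCab3.0 are named in the submitters' processing notes. The kinetic model, annotation, gene filter and units are not given in the sources used here. The authors deposited 2 tables with 1 synthesis rate and 1 half-life per gene and group, and 0 columns of values per sample. The unit of half-life was taken to be hours, since labelling lasted 4 h and every column stops at 69.3, a decay rate of 0.01 per h. The column headed Young was read as young female, since the labels tie that table to those samples.

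Log2 ratios were computed within a table with no pseudocount or filter (Python 3.11.15, pandas 2.3.3, checked on simulated data). Alternatives were a threshold of 0.5, half-lives of 1 to 24 h, the upper 75% by synthesis rate, a pseudocount of 0.1, centring on the median of all genes, the second table's young female values and, added later, implied levels and centring within half-life deciles. Members and lists were chosen with earlier results of these data known. Named genes are all members, list genes past 2-fold in half-life or synthesis rate, and the 3 genes nearest to ADAMTS4, ADAMTS5 and ADAMTS9. Outside that rule SOX9, ACAN and VWF are named as markers (ACAN also as a substrate), and ADAM15, ADAMTS3, DCN, FBN1, FN1 and RUNX2 were named after their values were seen. All 8 members matched the RefSeq gene table of the assembly TB-T2T, used for gene order only.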

Additional observations from a re-analysis of the deposited data

How the results depend on the processing

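Counts of members past the threshold moved in 12 of 42 alternatives and stayed within 1.5 times in 30. For synthesis rate in old cells the count of 1 became 3 at a threshold of 0.5, and 0 after centring on the median of all genes or within half-life deciles. For implied level in old cells it went from 1 to 3 at 0.5. For half-life in male cells it went from 1 to 2 at 0.5 and to 0 after centring on the median. For synthesis rate in male cells the count of 4 fell to 2 in the upper 75% by synthesis rate, to 2 with young female values taken from the age table and to 1 within half-life deciles. All 3 of these alternatives leave out ADAMTS2 and ADAMTS7, so the decile value changes membership and centring together. For implied level in male cells the 3 became 1, 1 and 0 under the same alternatives. The age half-life count was 0 under every alternative run. Of 132 alternative log2 ratios of members 100 lay within 0.1 of the listed value, and none past 2-fold changed sign. Counts over the related lists moved in 128 of 486 alternatives. Leaving out each replicate was not run, since no values per sample are used here. No paired analysis was possible because the tables hold group values and the replicate letters of the labels tie to no column. Depth is unknown, and half-lives under 1 h (ADAMTS1) or at the ceiling (ADAMTS2) lie outside the range of 1 to 24 h.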

Other observations

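Of 11 ADAM proteases looked for, relatives of the ADAMTS family that are mostly membrane-bound, 5 were listed for age and 6 for sex. None passed 2-fold in half-life or synthesis rate in old cells, where 3.53% and 7.52% of all genes did. In male cells, where 7.58% and 12.2% did, 1 passed in half-life and 0 in synthesis rate: ADAM12, a protease of mesenchymal cells, with a half-life of 59.8 h against 12.8 h in young female cells and a log2 ratio of implied level of 1.95. ADAM12 was listed in the sex table only. In implied level 2 of 6 passed 2-fold in male cells, where 4.61% of all genes did: ADAM12 and ADAM15, the latter named after its value was seen. Whether ADAM12 is listed only through its higher level in male cells was not tested. Its calls in half-life and implied level therefore cannot be read against the shares of all genes.

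Of 13 cytokine receptors and transcription factors known to act on aggrecanase genes, 11 were listed. In male cells 0 of 11 passed 2-fold in half-life or synthesis rate, where 7.58% and 12.2% of all genes did. With the age table's young female values 2 of 11 passed in each parameter. In old cells 1 of 11 passed in each parameter, against 3.53% and 7.52% of all genes: SOX4, a transcription factor, with a log2 ratio of 3.30 for half-life and −1.99 for synthesis rate. The half-life of SOX4 in the same young female samples was 0.0585 h in the age table and 0.630 h in the sex table, against 0.575 h in old cells, so this value rests on which young female estimate is used. With the sex table's young female values 0 of 11 passed in half-life and 2 in synthesis rate, SOX4 (1.48, reversed in sign) and RUNX2 (1.39), a transcription factor of skeletal cells. In implied level 1 of 11 passed 2-fold in old cells, against 4.12% of all genes. This was SOX4, at 1.30, or 1.35 with the sex table's young female values.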
